A study of Mus musculus with 2 samples.

Results

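The farthest distal VH stretch is the 500 kb at the high-coordinate end of the VH array of the mouse immunoglobulin heavy chain (Igh) locus, on chromosome 12 of build mm9. Its members were chosen by position alone. A HindIII fragment belonged to the stretch when its midpoint lay at or above 116750000 and below 117250000, and a primer pair was a member when at least 1 of its fragments belonged. This gave 17 of the 206 assayed fragments, 8 with a forward and 9 with a reverse primer, and 1674 of the 10584 primer pairs (15.8%), zeros included. The 17 fragments ran from 116760227 to 117190694 and covered 58.99 kb, or 11.8% of the 500 kb. No assayed fragment lay in the 98.9 kb between R733 and F764, the 74.1 kb between F769 and R788 or the 51.4 kb between R713 and F729.

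The data were chromosome conformation capture carbon copy (5C) counts from resting B cells of C57Bl/6 spleens, unstimulated and taken as CD43- cells with magnetic beads. In 5C, chromatin is crosslinked, cut with HindIII and ligated, and the junctions between chosen fragments are amplified with a forward and a reverse primer and sequenced, so that the count of a primer pair measures how often its fragments were joined. Both libraries belong to 1 group and are biological replicates by the design text, and the study set out to map contacts across the whole locus. The counts hold no expression values, so the labelled cell type could not be checked against markers.

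A heavy chain gene is assembled in developing B cells by joining a DH to a JH segment and then a VH segment to that DJH unit. The distal VH genes lie farthest from the DH and JH segments, and in pro-B cells their use is known to depend on a folding of the locus that brings both ends together. Mature B cells have finished this step, and DNA between the joined segments has been lost from rearranged alleles, so every distance given here is that of the unrearranged reference. In the RefSeq gene order of another assembly (GRCm38), the VH array ends with Ighv1-84, Ighv1-85 and Ighv1-86 and is followed by Zfp386 and Vipr2. Its last 30 VH entries are 23 Ighv1 and 7 Ighv8 segments or pseudogenes, 2 large and distal VH families. Which of them lie in the assayed fragments was not determined, because no annotation of mm9 was at hand.

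Member pairs held 437865 of the 16067416 counts of replicate 1 and 375544 of the 15096402 counts of replicate 2, a share of 2.61% ± 0.168 (SD, n = 2). Some pairs join neighbours at a common HindIII site and cannot be told apart from uncut chromatin; without them the share was 5.26% ± 0.229. The median member pair had 57 counts in replicate 1 and 49 in replicate 2, against 117 and 107 for the other pairs. In replicate 1, 37 member pairs had no count, in replicate 2, 73, and 15 had none in both. The fragments of the stretch were also recovered less often in sum. The median summed count per fragment was 19618 in replicate 1 and 15879 in replicate 2 in the stretch, and 53661.5 and 45502.5 over all 206 fragments. The stretch held 4 of the 21 fragments with the lowest sums, F702 being the lowest of all in both libraries with 2569 and 2040 counts. Low recovery of a primer and few contacts of its fragment move together in such sums, so levels are given below both with distance taken out and with distance and primer effects taken out.

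Contacts were set against a count expected at their distance, taken from a smooth curve through all pairs of a library. A pair was called when it stood 2 or more standard units above that curve (z) in both libraries, the study's criterion being detection in both replicates. By this rule 9 member pairs were called (0.538%), where 1.45% of all pairs and 1.62% of the pairs outside the stretch were. Replicate 1 alone gave 18 member pairs (1.08%, against 2.11% of all pairs) and replicate 2 gave 9 (0.538%, against 1.88%). The second measure was a log2 ratio of the count to that expected from distance and from the additive effect of each primer, tested across all pairs with edgeR's quasi-likelihood F test and Benjamini-Hochberg adjustment. At an adjusted p under 0.05, 220 member pairs were higher than expected (13.1%, against 14.3% of all pairs) and 52 were lower (3.11%, against 5.70% of all pairs), or 272 in all where 20.0% of all pairs passed. These shares were near the background or under it, which did not hold in every setting. With additive primer effects removed before z was taken, 24 member pairs were called (1.43%), where 1.19% of all pairs were, and with iterative correction without shared-site pairs 32 were (1.92%), where 1.23% of all pairs were. All 9 called pairs were among the 220. With limma in place of edgeR, 37 member pairs passed (2.21%), 26 higher and 11 lower, where 1.80% of all pairs passed.

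The called pairs reached 253 to 1407 kb in 8 cases, and 1 lay inside the stretch. Intervals were counted down from the stretch in steps of its own width. The first interval below it held the partner of 5 called pairs (3.25% of 154). The second held that of 2 (0.816% of 245), the third that of 1 (0.296% of 338) and the fourth that of 0 of 193. Over all pairs 1.45% were called. None of the 528 pairs with the constant end, the part below the fourth interval, was called. None of the 144 pairs with the flank above the stretch was called either. A called pair was found for 7 of the 17 fragments, and R686 with 3 and F792 with 2 had the most. All 3 calls of R686 were lost with additive primer effects removed, with iterative correction and on the log2 scale, so its rank depends on that choice. The log2 scale also lost 3 of the 6 other calls.

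The highest count of any member pair that does not share a site was inside the stretch. F792 (chr12:117189453-117190694), its last fragment, and R768 (chr12:117095670-117102068) lie 91.2 kb apart and had 79654 counts in replicate 1 and 61986 in replicate 2. This was 59.4 ± 4.02 times the count expected at that distance (SD, n = 2), and with primer effects in the expectation the log2 ratio was 5.87 ± 0.119 (SE; edgeR, adjusted p = 1.97e-18). With limma in place of edgeR the adjusted p of this pair was 0.0224. The pair held 71.0% of all counts of R768 in replicate 1 and 69.4% in replicate 2, and 70.5% and 70.2% of those of F792. Both fragments had far fewer counts with their nearest assayed partner. R768 shares a HindIII site with F769, 6.61 kb between midpoints, and the pair had 392 and 282 counts. F792 and R788, at 6.01 kb, had 1367 and 1044. So for both fragments the pair at 91.2 kb exceeded the nearest pair by far in each library, while counts in general fall with distance.

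The second-highest count left the stretch. F685 (chr12:116809861-116811073) and R606 (chr12:116539430-116542358), in the first interval below, lie 269.6 kb apart and had 21363 and 21699 counts. The pair stood 54.1 ± 4.30 times above the count expected at its distance, with a log2 ratio of 5.89 ± 0.138 after primer effects (edgeR, adjusted p = 1.44e-17). Both libraries gave almost the same count. F685 also shares a site with R686, and that pair had 68081 and 65348 counts, a log2 ratio of 0.15 ± 0.123 (edgeR, adjusted p = 0.420).

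R705 (chr12:116875021-116877871) had few counts with near partners and many with 2 far ones. Its pair with F624 (chr12:116605743-116610576), 268 kb away in the first interval below, had 6770 and 5977 counts, 15.8 ± 0.312 times those expected at the distance, and a log2 ratio of 5.26 ± 0.171 (edgeR, adjusted p = 3.75e-15). That pair held 40.2% of the counts of R705 in replicate 1 and 44.7% in replicate 2. With F556 (chr12:116385510-116386658), 490.4 kb away, R705 had 2454 and 1122 counts and a log2 ratio of 4.53 ± 0.174 (edgeR, adjusted p = 1.84e-13). This pair missed the call only through replicate 2, where z was 1.96. Inside the stretch the counts of R705 were low. Its 8 pairs there had 7 to 186 counts in replicate 1 and 1 to 177 in replicate 2, and 3 of them were lower than expected and 0 higher. With its neighbour F702, 9.77 kb away, it had 19 and 8 counts, the lowest log2 ratio of any pair inside the stretch at -3.26 ± 0.595 (edgeR, adjusted p = 0.00704). With F712, 16.7 kb away on its other side, it had 30 and 17. Its 10 pairs with the first interval below had medians of 198.5 and 125, and 5 of them were higher.

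R686 (chr12:116811074-116816454) had the highest contact level of the stretch and took part in 3 called pairs with partners spread over 253 to 587 kb. With F611 (chr12:116559256-116561326) it had 5127 and 3295 counts, 9.58 ± 2.32 times those expected at the distance. With F556 it had 1939 and 1504 counts at 428 kb, 7.30 ± 0.794 times the expected. With F517 (chr12:116222484-116231679), in the second interval below at 587 kb, it had 1548 and 1386 counts, 7.69 ± 0.0826 times. R686 was high with most partners, and these pairs stood out less once primer effects were in the expectation. Their mean z fell below the threshold of 2, to 0.876 for F611-R686, 1.37 for F556-R686 and 1.41 for F517-R686, with additive primer effects removed, and F611-R686 and F556-R686 also lost the call with a span of 0.4. By the edgeR test all 3 were higher, with log2 ratios in the same order of 0.81 ± 0.157, 1.36 ± 0.179 and 1.44 ± 0.180 (edgeR, adjusted p = 0.00104, 1.82e-05 and 1.08e-05).

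The remaining called pairs were longer or weaker. F556 and R733 (chr12:116972605-116981159), at 591 kb, had 1343 and 1025 counts and a log2 ratio of 2.38 ± 0.184 (edgeR, adjusted p = 2.07e-08). R668 (chr12:116760227-116762407), the first fragment of the stretch, and F369 (chr12:115696906-115699931), 1063 kb away in the third interval below, had 1081 and 1047 counts, 7.91 ± 0.0328 times those expected at the distance, with a log2 ratio of 3.04 ± 0.189 (edgeR, adjusted p = 6.20e-10). F792 and R401 (chr12:115780319-115786560), 1407 kb apart and the farthest called pair, had 997 and 621 counts, 6.78 ± 1.96 times the expected, with a log2 ratio of 3.51 ± 0.205 (edgeR, adjusted p = 1.69e-10). The libraries differed most for this last pair and for F611 with R686. On the log2 scale F369-R668, F792-R401 and F556-R733 lost the call, with a mean z of 1.94, 1.79 and 1.78. F792-R401 also lost it with a span of 0.4, at 1.81.

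**Figure D1:**
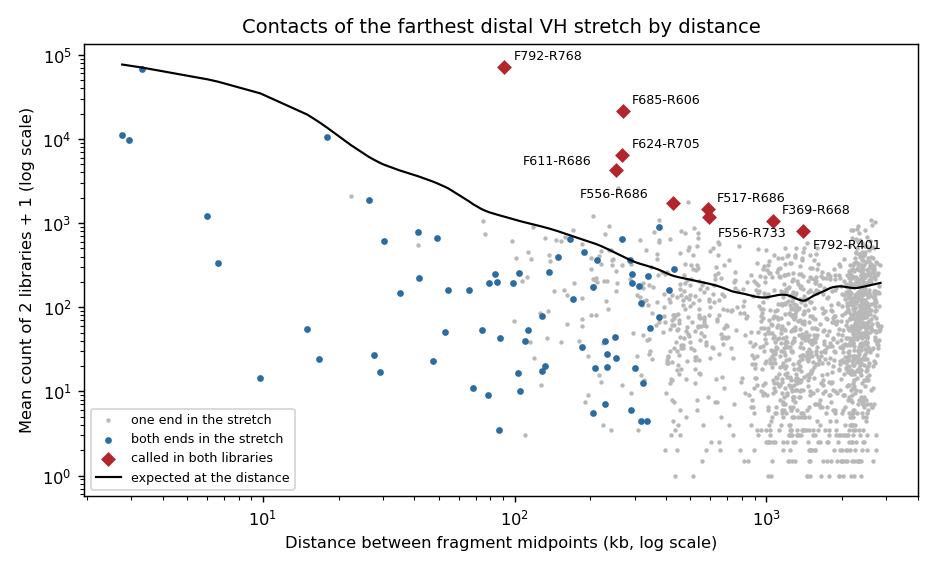
Mean count of both libraries plus 1 (vertical axis, log scale) against the distance between fragment midpoints in kb (horizontal axis, log scale) for the 1674 member pairs. Blue points have both ends in the stretch, grey points have 1 end in it, and red diamonds are the 9 called pairs. The line is the count expected at the distance from all pairs of the locus, those sharing a site included. Most blue points under 100 kb lie below the line, and F792-R768 and F685-R606 lie highest above it.

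Some pairs stood out mainly against what their primers usually gave. F702 (chr12:116864979-116868374) was the fragment with the lowest sum of all. Its highest mean count of both libraries was with R552 (chr12:116364360-116366864), 501 kb away, at 293 in replicate 1 and 140 in replicate 2. Against its distance this was 1.01 ± 0.444 times the mean curve and was not called by z, and the edgeR test with distance alone as the expectation, which follows log2 counts, gave a log2 ratio of 1.06 (adjusted p = 0.0106). With primer effects as well, which led to an expected 1.23 and 0.524 counts, it gave the largest log2 ratio of all member pairs, 7.62 ± 0.296 (edgeR, adjusted p = 6.38e-14). In replicate 2 that expected count was a floor of 0.5, shifted by the centring on the median, so the size of this ratio depends in part on the floor. At the other end of the scale, F685 and R90 (chr12:114679904-114686567), at the constant end, had 7 and 2 counts where 71.7 and 75.4 were expected, a log2 ratio of -3.98 ± 0.781 (edgeR, adjusted p = 0.00764). R161 (chr12:114950757-114952521), in the fourth interval below, had 0 and 1 counts with F729 (chr12:116948848-116952133), where 27.2 and 20.4 were expected, and 0 and 0 with F712 (chr12:116891916-116894434), where 8.75 and 7.72 were. F165 (chr12:114973711-114977500), in the same interval, had 1 and 0 counts with R674 (chr12:116778848-116781489), where 12.9 and 10.7 were expected. All 3 passed the edgeR test as lower (adjusted p = 0.0119, 0.0296 and 0.0315), and at such counts no fold is given.

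Contacts among the fragments of the stretch were low for their distance. The 72 pairs with both ends inside had median counts of 139.5 in replicate 1 and 98 in replicate 2. Their mean level, the log2 of the count plus 1 less its expectation at the distance, was -1.52 in replicate 1 and -1.88 in replicate 2, or -1.70 ± 0.250 (SD, n = 2), 0.307 times the expected on the geometric scale. In the first interval below, 18 fragments gave 80 inside pairs with medians of 523 and 363 counts and a level of 0.098 ± 0.170, and in the second, 208 pairs had medians of 197.5 and 160 and a level of -0.79 ± 0.121. The stretch was lower than the first interval by more than the spread between libraries (difference -1.74 in replicate 1 and -1.86 in replicate 2) and lower than the second (mean difference -0.91 ± 0.129). With 2 libraries the smallest two-sided p of a sign permutation test is 0.5, so these differences are descriptions. With primer effects taken out they were small. The level inside was then -0.15 ± 0.0624, against -0.075 ± 0.0316 and -0.38 ± 0.0231 inside the first and second intervals, which put the stretch between them. Summed counts per fragment moved with the uncorrected levels in part, with medians of 36879.5 and 32128.5 in the first interval and 49474 and 39736 in the second, and their part in the low level was not tested.

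A pair of junctions made up most of what was counted inside. Of 199873 counts inside the stretch in replicate 1 and 165706 in replicate 2, F792-R768 and F685-R686 held 75.4% ± 2.07. Only 4 of the 72 pairs were above the count expected at their distance in both libraries, and 38 were below 0.1 times the expected in both. Such shares were not taken over all pairs, and the curve follows mean counts, so numbers of this kind do not set the stretch apart. Besides F792-R768 the pairs above were F792-R686, with 1058 and 745 counts at 376 kb, F764-R686, with 652 and 643 at 267 kb, and F792-R668, with 333 and 232 at 429 kb, so 3 of the 4 involved F792. None of the 12 pairs under 30 kb was above the expected in both libraries. The curve includes pairs that share a site, and what these add to the expected counts at such distances was not tested. F764 (chr12:117080054-117081675) and R768, 18.0 kb apart, came nearest among those not sharing a site, with 11642 and 9289 counts, 0.770 ± 0.0749 times the expected at the distance. After primer effects that pair was high, at a log2 ratio of 3.51 ± 0.148 (edgeR, adjusted p = 2.05e-12). Of the 72 pairs inside, 13 were higher (18.1%) and 10 lower (13.9%) by that test, against 14.3% and 5.70% of all pairs of the locus.

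The 4 pairs that share a HindIII site differed widely. F685-R686 had 68081 and 65348 counts, while F694-R695 had 11373 and 8116, F712-R713 had 13346 and 8902, and F769-R768 had 392 and 282. Against distance and primers, F694-R695 and F712-R713 were higher, with log2 ratios of 2.19 ± 0.143 and 2.04 ± 0.140, and F769-R768 was lower, with -3.14 ± 0.255 (edgeR, adjusted p = 3.20e-09, 7.75e-09 and 1.48e-05). Neighbours that share a site thus ran from the second-highest count inside the stretch in replicate 1, and the highest in replicate 2, down to a count that longer pairs exceeded. The forward fragment lies above the reverse one in F769-R768 and below it in F685-R686, F694-R695 and F712-R713. Whether this order has a part in the counts was not tested.

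**Figure D2:**
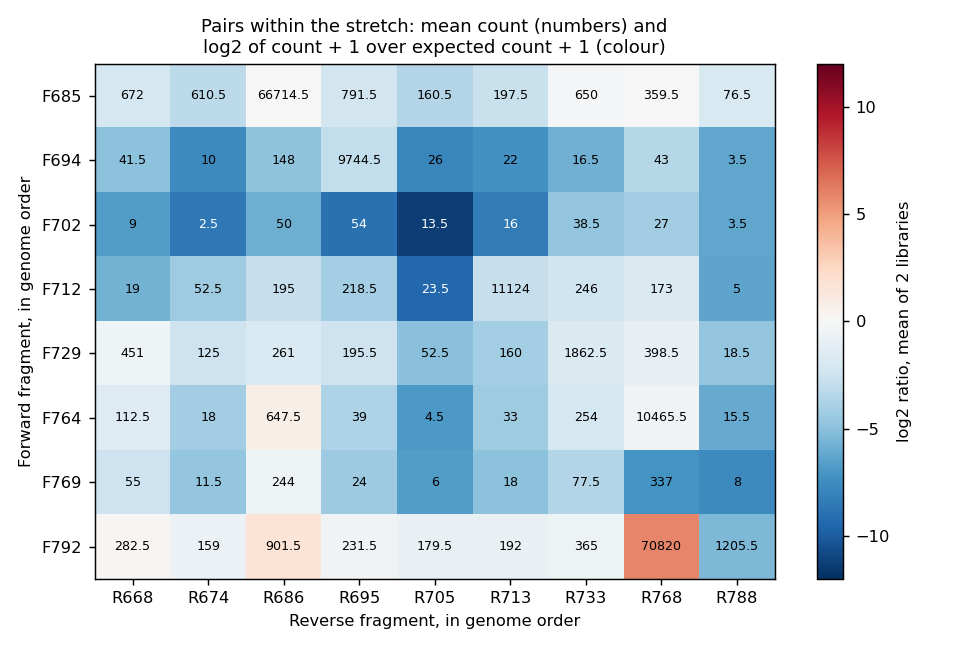
Mean count of both libraries, as a number, and log2 of the count plus 1 over the expected count plus 1 at that distance, as a colour, for the 72 pairs of 8 forward (rows) and 9 reverse (columns) fragments, both in genome order. F792-R768 is the only deep red cell, and the F702 row and the R705 column hold the darkest blue.

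The gap between F764 and R768 (117081675 to 117095670) was looked at because mean z of the pairs that cross it was known from these data to have a local minimum there, a sign of insulation. Inside the stretch, the 26 pairs that cross this gap had a level of -1.09 ± 0.199, the 42 pairs below it -2.14 ± 0.269 and the 4 pairs above it -1.06 ± 0.386. With primer effects taken out the levels were 0.10 ± 0.0241 across, -0.34 ± 0.0745 below and 0.16 ± 0.184 above. Pairs across the gap were therefore not below pairs beside it by more than the spread between libraries in either of these levels. Mean z, in which the minimum was known, was not compared here. The 4 pairs above the gap include F792-R768 and F769-R768, which shares a site, so they are a poor standard. By the edgeR test, 2 of the 26 crossing pairs were higher (7.69%) and 0 lower, 10 of the 42 below were higher (23.8%) and 8 lower, and 1 of the 4 above was higher and 2 lower. Of the 81 pairs of the locus that cross the gap between fragments at most 250 kb from it, 7 were higher (8.64%) and 0 lower, where 14.3% of all pairs were higher and 5.70% lower. Crossing pairs were thus seldom far from expectation in either direction, and no test of insulation follows from these counts.

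Toward the rest of the VH array the level fell with each interval. The 154 pairs with the first interval below had median counts of 127 and 87.5 and a level of -0.088 ± 0.146. The 245 pairs with the second had 48 and 44 counts and a level of -0.62 ± 0.0176, the 338 pairs with the third 27 and 27 and -0.92 ± 0.0887, and the 193 pairs with the fourth 25 and 23 and -1.52 ± 0.0453. Distance is already taken out of these levels, and neighbours in this order differed by more than the spread between libraries. With primer effects taken out the first 3 intervals lay close together, at 0.25 ± 0.0211, 0.18 ± 0.0938 and 0.095 ± 0.00875, and only the fourth stayed below 0, at -0.40 ± 0.0198. Higher pairs by the edgeR test made up 31 of 154 (20.1%), 38 of 245 (15.5%), 42 of 338 (12.4%) and 11 of 193 (5.70%) in that order. Lower pairs numbered 7 (4.55%), 2 (0.816%), 0 and 6 (3.11%). Taken as a whole, the 930 pairs with the 4 intervals had a level of -0.83 ± 0.0704, which became 0.039 ± 0.0291 with primer effects taken out, so its sign rests on that choice.

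Contacts toward the constant end, the side of the locus that holds the constant-region genes, did not continue this fall. The 528 pairs, at a median of 2407 kb, had median counts of 76 in replicate 1 and 69 in replicate 2. Both were about 3 times the medians for the fourth interval, which is nearer. Their level was -0.15 in replicate 1 and -0.25 in replicate 2 (-0.20 ± 0.0768), and 0.078 ± 0.0105 with primer effects taken out, which turns the sign. These pairs held 16.9% ± 0.710 of the member counts. By edgeR's test 70 were higher (13.3%) and 21 lower (3.98%), and as given above 0 were called by z. Other intervals did have called pairs with the constant end, 11 (1.98%) from the first interval below, 21 of 902 (2.33%) from the second and 8 of 528 (1.52%) from the flank above. Whether this difference holds beyond these libraries was not tested. Fragments of the constant end were recovered far more than those of the stretch, with median sums of 227227 and 196292. In the fourth interval the median sums were 33723 and 30816, and what recovery adds to the higher counts toward the constant end was not tested.

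The flank above the stretch, on the far side from the constant end, was contacted less than its distance would give. The 144 pairs had median counts of 75 and 67.5 and a level of -0.93 ± 0.0568. With primer effects taken out the level was -0.088 ± 0.0453. In all, 15 were higher (10.4%) and 6 lower (4.17%), against 14.3% and 5.70% of all pairs.

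**Figure D3:**
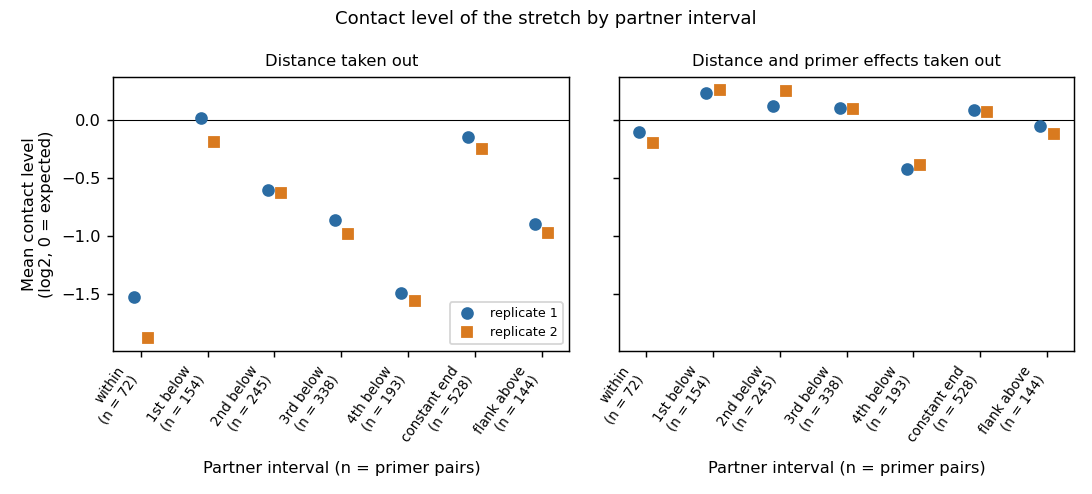
Mean contact level of the member pairs (log2, 0 is the expectation) by the interval of the partner, for replicate 1 (circles) and replicate 2 (squares), with distance taken out (left) and with distance and primer effects taken out (right). On the left the level falls from the first to the fourth interval below and returns near 0 at the constant end, and on the right all but the fourth interval lie between -0.20 and 0.26.

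The 17 fragments varied more among themselves than between libraries. Their mean level over all partners ran from -3.16 ± 0.184 for F702 to 1.60 ± 0.0131 for R686, with 11 below 0 and 6 above. F792 followed with 1.37 ± 0.0550 and then R768 with 0.74 ± 0.0628. R788 (chr12:117183045-117185079), 6.01 kb from F792, had -2.64 ± 0.154, so neighbours at the very end of the stretch lay far apart. At its bounds, F661 just below the stretch had 1.43 ± 0.140 and R668 just inside had 0.41 ± 0.0163, while F792 was followed outside by R810 with -0.19 ± 0.145. For 12 of the 17 fragments the partner with the highest mean count of both libraries was the nearest assayed. The exceptions were F702, R705, R768, F769 and F792. F769 (chr12:117102069-117108895) had its highest mean count at the constant end, with R81 (chr12:114664824-114667095), 2440 kb away, at 461 and 379, above the 392 and 282 it had with its neighbour R768. In replicate 1 alone its highest count at the constant end was 530, with another fragment.

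**Figure D4:**
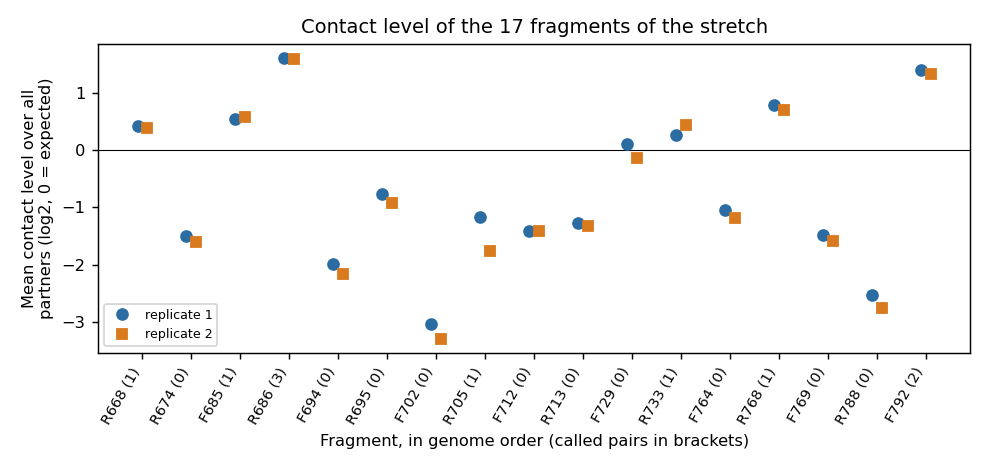
Mean contact level over all partners (log2, 0 is the expectation at the distance) of the 17 fragments in genome order, for replicate 1 (circles) and replicate 2 (squares), with the number of called pairs in brackets. R686 and F792 are highest and F702 and R788 lowest in both libraries.

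F792 divided its contacts between parts of the locus in its own way. By the edgeR test 10 of its 16 pairs with the second interval below and 10 of its 22 with the third were higher. Toward the constant end 15 of its 30 pairs were lower and 1 was higher, and toward the flank 6 of 9 were lower and 0 higher. It thus supplied 15 of the 21 lower pairs of the whole stretch with the constant end and all 6 of those with the flank. Its counts there were not small, with medians of 174 and 173.5 toward the constant end, against 76 and 69 for the stretch. Primer effects are fitted so that a fragment's ratios centre on 0, so higher ratios with 1 part of the locus go with lower ratios elsewhere.

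The opposite held for fragments with a low level. Of the 528 pairs with the constant end 13.3% were higher, against 14.3% of all pairs. Each fragment had 30 or 32 such pairs, so that 15 of the 17 fragments had 1 or more higher does not set the stretch apart. Higher pairs were most frequent for R705 and R788 (10 of 32 each), F769 (9 of 30), F702 (8 of 30) and F694 and F764 (7 of 30 each). All 6 of these had a level below -1. The other 3 fragments below -1 had few, with 0 of 32 for R674 and 3 each for F712 and R713. Over the 9 fragments with a level below -1, 57 of 278 pairs with the constant end were higher (20.5%), and over the 8 others 13 of 250 were (5.20%), a split made after these values were seen. The counts themselves were smaller in the first set, with medians of 45 and 38, than in the second, with 135 and 120.5. Higher pairs toward the constant end were therefore more frequent in the set with low levels and smaller counts, though not for each fragment of it, and what primer recovery adds to them was not tested.

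Single partners at the constant end show such cases. R81 was assayed with all 8 forward fragments of the stretch and was higher with F694, F702, F764 and F769. With F694 it had 696 and 940 counts and a log2 ratio of 2.91 ± 0.204 (edgeR, adjusted p = 3.10e-09). With F792 it had 717 and 643 counts, about as many, and the ratio was lower than expected, at -1.02 ± 0.215 (edgeR, adjusted p = 0.00815). R35 (chr12:114493852-114496828) was higher with the same 4 fragments and lower with F685 and F792. In replicate 1 the counts of R35 lay between 130 (F702) and 516 (F729), and in replicate 2 between 81 (F702) and 661 (F764).

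Within the first interval below, higher pairs gathered on 3 neighbouring fragments, which were chosen here after their values were seen. F548 (chr12:116356077-116357168) was higher with 7 of 9 reverse fragments of the stretch, R552 with 4 of 8 forward fragments, and F556 with 4 of 9 reverse fragments, 2 of them called. Together 15 of their 26 pairs were higher (57.7%) and 0 lower, where 16 of the 128 other pairs with that interval were higher (12.5%) and 7 lower. Because the 3 were chosen after these values were seen, the choice itself sets part of this contrast. The lowest counts of F548 were with R788, at 9 and 8, and the highest with R686, at 1031 and 596. Its partners R668, R674, R686, R695, R713, R733 and R768 lay along most of the length of the stretch, from 404.7 kb away (F548-R668) to 742 kb (F548-R768). R705 and R788 were the 2 reverse fragments with which F548 was not higher.

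**Figure D5:**
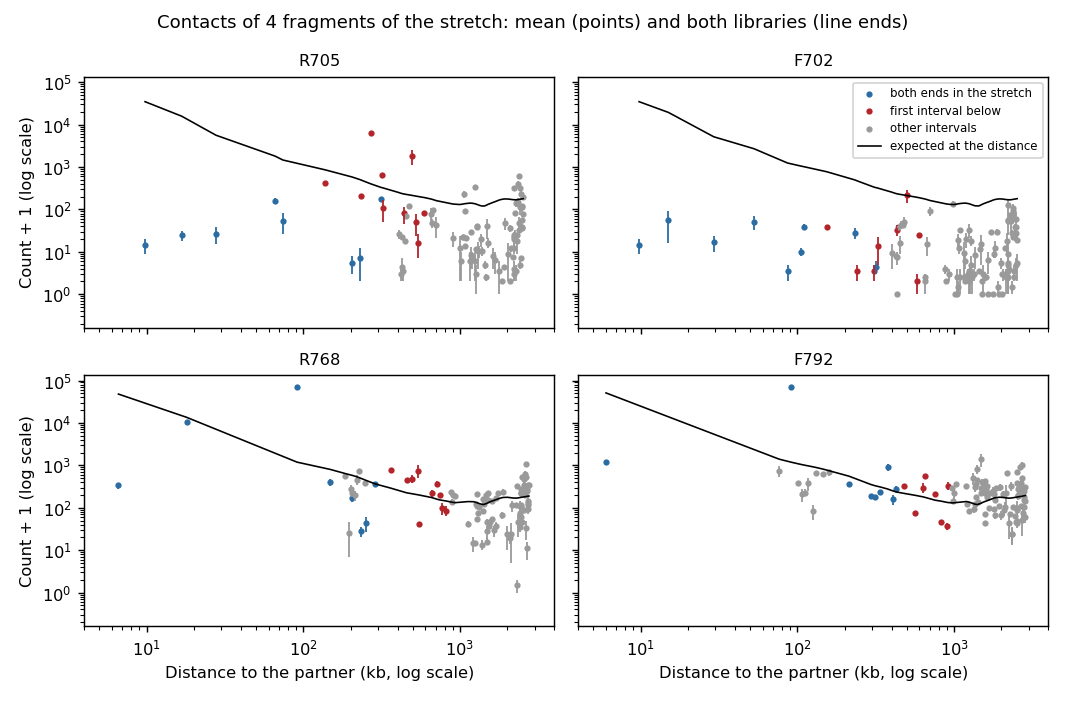
Count plus 1 (log scale) of R705, F702, R768 and F792 with each partner against the distance in kb (log scale), as the mean of both libraries (points) with both libraries at the line ends, beside the count expected at the distance (black line). Blue points are partners in the stretch and red points those in the first interval below. R705 and F702 lie under the line near the fragment, with F624 high for R705, and the F792-R768 point stands far above the line in both lower panels.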

How the data were processed

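The authors deposited 1 matrix of counts per library, a row per forward and a column per reverse primer, made as all-by-all matrices with the my5C tool after a step named transpurge, per the file headers. Novoalign and build mm9 are named in the submitters' processing notes, with versions and mapping settings not given in the sources used here. Totals were 16067416 and 15096402 counts. No molecular identifiers are stated, so counts need not be independent molecules. As the labels do not say which animals the libraries came from, p-values cannot be read as a spread between animals. The p-values of edgeR rest on the spread between these 2 libraries, moderated over all pairs, and on expected counts fitted to the same counts. Pairs of the chromosome 5 gene desert were not analysed here.

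Expected counts came from LOWESS on log10 distance over all pairs (statsmodels 0.14.6, span 0.2), and z was the residual over the square root of the smoothed squared residual. Levels used log2(count + 1), and primer effects were additive on that scale. Ratios were tested with edgeR 4.0.16 (glmQLFit, intercept only, log expected count as offset, Benjamini-Hochberg over 10584 pairs). The F test was formed by hand from the fitted quasi-dispersions, since glmQLFTest needs 2 design columns, and SEs are Wald errors. Limma 3.58.1 was the alternative. Its adjusted p was far larger for the largest ratios, at 0.0224 (limma) for each of F702-R552, F685-R606 and F792-R768. Scripts were tested on simulated data.

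Named pairs were all called members, up to 15, the 5 highest and 5 lowest ratios past the test, the 3 highest counts not sharing a site, and pairs that share one. Named fragments were the first, the last and the 5 with most called pairs. Other names were chosen after their values were seen. Members, intervals and lists were chosen with earlier results of these data known. The RefSeq table (GRCm38) served for gene names and order only.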

Additional observations from a re-analysis of the deposited data

How the results depend on the processing

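Counts of called pairs moved with the settings and levels with the primer correction. The 9 called member pairs became 17 at z of 1.5, 5 at z of 3, 15 with a LOWESS span of 0.1, 3 on the log2 scale, 24 with additive primer effects removed and 32 with iterative correction without shared-site pairs. The last 2 each held 6 of the 9 and lacked the 3 of R686. Leaving out a replicate gave 9 to 18. The share of members called was 1.02% at z of 1.5, 0.299% at z of 3, 0.896% with a span of 0.1 and 0.179% on the log2 scale. Of all pairs 2.29%, 0.642%, 1.83% and 0.671% were called in that order. Under both primer corrections the share of members called (1.43% and 1.92%) was above that of all pairs (1.19% and 1.23%) and no longer below it. The 272 member pairs past the edgeR test became 37 with limma, 163 without low primers and 992 with distance alone as the expectation, where 6349 of 10584 pairs passed in all. No edgeR fit without a replicate could be made, since no residual degrees of freedom are left.

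The level inside the stretch (-1.70) was -0.97 without low primers, -0.15 with primer effects removed and -1.42 from summed counts, and -1.88 to -1.52 for single replicates. Toward the constant end -0.20 became -0.075 with a span of 0.1, -0.43 from summed counts and, reversed, 0.078 with primer effects removed. Toward the other VH intervals -0.83 became -0.68 with a pseudocount of 5, -0.49 without low primers, -0.34 from summed counts and, reversed, 0.039 with primer effects removed. The cause was not tested. Of 89 z values of the 9 called pairs under alternatives, 74 kept the call, 15 lost it and 0 reversed. The 10 named log2 ratios kept direction and call in 70 of 70 values, but a setting that left a pair out gave it no value. Without low primers, F702-R552, F702-R705, F712-R161, F729-R161 and F165-R674 had none. With a mean count of at least 10, F712-R161, F729-R161, F165-R674 and F685-R90 had none. F702-R552 counted as kept, though its log2 ratio of 7.62 became 1.06 with distance alone. No paired analysis was possible because there is 1 group, so no groups share replicate numbers.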
